A study of Mus musculus with 14 samples.

Results

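The Htra proteases are serine proteases of the HtrA family, and the mouse genome encodes them in *Htra1*, *Htra2*, *Htra3* and *Htra4*. These genes were chosen by their UMIs (unique molecular identifiers, each a captured RNA molecule), summed per cell type label and library, scaled to the total UMIs of that label and library as CPM and compared between control and CKO nuclei. They are 4 of the 28929 gene symbols counted in brain or retina, and all 4 are among the 26528 symbols of the brain data and the 28316 of the retina data. Because the contrast of control with CKO chose the genes, their values in that contrast are given as a description, with no test.

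HTRA1, HTRA3 and HTRA4 are secreted enzymes whose amino-terminal region resembles insulin-like growth factor binding proteins, followed by a protease domain and a PDZ domain. They cut extracellular matrix proteins such as fibronectin and proteoglycans and can act on ligands of the TGF-beta family and on the proteins that hold these ligands latent, and loss of human HTRA1 causes an inherited disease of the small vessels of the brain. HTRA2 lies in the intermembrane space of mitochondria, where it takes part in protein quality control, and it binds inhibitor of apoptosis (IAP) proteins when released into the cytosol.

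Nuclei for single-nucleus RNAseq (snRNAseq) came from whole retinas and from pieces of brain vessels that had been concentrated in a Ficoll spin. In the study the retina libraries served to identify the immune cells of CKO retinas. The brain libraries served to compare gene expression of endothelial cells (ECs) with and without TGF-beta signaling. CKO mice were *Cdh5CreER;Tgfbr1 CKO/-*, in which a tamoxifen-dependent Cre driven by the *Cdh5* (VE-cadherin) promoter, active in ECs, recombines a conditional *Tgfbr1* allele that is paired with a null allele. They received 4-hydroxytamoxifen (4HT) between P3 and P5. Control mice were labelled wild type. In the study this means phenotypically wild type, typically mice with the same Cre whose conditional allele is paired with a wild-type allele (*Cdh5CreER;Tgfbr1 CKO/+*). Which alleles the mice of these control libraries carried, and whether they received 4HT, is not given in the labels. The study gives the age of the mice as P14, while the deposited description calls them young adults. Brain had 1 control and 1 CKO library, each from 2 pooled brains, and retina had 1 control and 11 CKO libraries, for which the number of mice is not given.

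The control brain library held 16649 nuclei with 49798325 UMIs (median 1541 per nucleus) and the CKO brain library 14675 nuclei with 31033373 UMIs (median 1395). ECs made up 2475 of the control nuclei (5801552 UMIs) and 2944 of the CKO nuclei (6851854 UMIs). With 1 library per genotype, no brain difference has a replicate check, and the 95% intervals below (exact Poisson for a level, exact conditional binomial for a ratio of levels) cover counting error only. Transcripts of the sex chromosomes differed as well. *Xist*, transcribed from the inactive X chromosome, was at 1963 CPM in control and 1.29 CPM in CKO, and the summed level of the Y-linked genes *Uty*, *Ddx3y*, *Kdm5d* and *Eif2s3y* was 189 CPM in control and 421 CPM in CKO. Differences that go with sex and with genotype therefore cannot be told apart in the brain data. The brain libraries shared 2 nuclear barcodes.

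The control retina library held 11513 nuclei with 30989702 UMIs, and the CKO libraries held 104 to 18862 nuclei with 90449 to 55803724 UMIs. Among retinal barcodes, 10 of 77666 occurred in more than 1 library, at most 2 between any pair. By the authors' batch labels, control and CKO replicates 1 to 3 formed batch 1, CKO replicates 4 and 5 batch 2, and CKO replicates 6 to 11 batch 3. CKO replicates 8 to 11 were made with the v5.0 kit and the other libraries with the v4.0 PLUS kit. CKO replicates 4 and 5 stand apart because the authors removed clusters from them by hand, and replicate 4 retained 104 nuclei, so results are also given without both. *Xist* was at 6779 CPM in the control retina library, 5577 to 6823 CPM in CKO replicates 1, 2, 4 and 7, and 0.365 to 12.9 CPM in the other CKO libraries. The part of sex in differences between retina libraries was not tested. The checklist of the study calls its replicates biological, but the labels do not tie the CKO libraries to separate mice. The p-values over them measure the spread between libraries, part of which may be technical.

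*Tgfbr1*, the targeted gene, had 401 UMIs (69.1 CPM) in control ECs and 431 UMIs (62.9 CPM) in CKO ECs, a ratio of 0.910 (0.792–1.05). Counts per gene do not separate transcripts of the deleted and the undeleted allele, so these values are no check of the deletion. Over all nuclei *Tgfbr1* was at 36.5 CPM in control brain and 26.2 CPM in CKO brain. In such sums over a library, fewer cells of a type and less RNA per cell cannot be told apart. In retina it was at 89.0 CPM in control and 71.4 to 87.0 CPM in CKO libraries apart from replicate 4, which had 365 CPM. ECs are not among the 11 retinal cell type labels.

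The cell type labels of the authors were set against marker genes. ECs of both brain libraries had EC markers as their most abundant marker list, at 12551 CPM in control and 10413 CPM in CKO, led by *Flt1*. Of the 21 brain labels, the nuclei labelled glia had fibroblast markers highest (mean 9605 CPM), those labelled vSMCs had pericyte markers highest (6431 CPM), and those labelled Glut_20 had oligodendrocyte markers highest (6286 CPM). These 3 are called here by their labels, although the list of another cell type was highest in each. Retinal labels were instead ranked against each other for their own marker list, and all 11 came first or second. Within most retinal neuron labels the general neuron list was highest. The retinal immune label of the control library, with 29 nuclei, had neuron markers at 4936 CPM and immune markers at 1529 CPM. Neuron and rod markers were also above immune markers in 9 of the 10 CKO libraries with at least 20 immune nuclei. The exception was replicate 4, with immune markers at 6647 CPM and neuron and rod markers at 0.

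*Htra3* encodes a secreted protease. In GRCm39 it lies on the minus strand at chr5:35809367-35837126 (ENSMUSG00000029096.17), with no other annotated gene overlapping it. In brain ECs *Htra3* had 1020 UMIs in control and 64 UMIs in CKO. That is 176 CPM (165–187) in control and 9.34 CPM (7.19–11.9) in CKO, an 18.8-fold lower level in CKO ECs (14.6–24.6; log2 ratio -4.23). In nuclei with at least 2 EC markers, whatever their label, the log2 ratio was -3.22 (1217 and 104 UMIs). The ratio over all ECs, as a description of the contrast that chose the genes, ranked 4th from the lowest among 7924 genes. These genes reached 200 UMIs when control and CKO ECs were added together.

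*Htra1* encodes another secreted member. It lies on the plus strand at chr7:130537518-130587390 (ENSMUSG00000006205.15), inside the annotated span of *Fgfr2* on the opposite strand. In brain ECs *Htra1* had 566 UMIs in control and 249 UMIs in CKO. Its level was 97.6 CPM (89.7–106) in control and 36.3 CPM (32.0–41.1) in CKO, 2.68-fold lower in CKO ECs (2.31–3.13; log2 ratio -1.42). Its ratio, likewise as a description, ranked 81st from the lowest among the same genes. *Fgfr2* went the other way in ECs, at 71.2 CPM in control and 111 CPM in CKO. No source used here says whether strand was used in counting, so the UMIs of such overlapping genes are uncertain.

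Of the 4 members, *Htra1* and *Htra3* had at least 200 UMIs in ECs, and both were more than 2-fold lower in CKO. Among all 7924 genes, 189 (2.39%) were more than 2-fold lower. Counting both directions, 611 genes (7.71%) passed 2-fold, 422 of them higher in CKO. Since this contrast chose the members, nothing is read from their count.

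*Htra4* encodes the remaining secreted member, at chr8:25514945-25528990 on the minus strand (ENSMUSG00000037406.9), overlapping *Tm2d2* and the noncoding *Gm16933* on the other strand. It was close to the limit of detection. ECs had 3 UMIs in control (0.517 CPM) and 7 UMIs in CKO (1.02 CPM), a ratio of 1.98 with an interval of 0.451 to 11.8.

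*Htra2*, the mitochondrial member, lies at chr6:83027597-83032254 on the minus strand (ENSMUSG00000068329.14), overlapping *Aup1* and *Loxl3* on the plus strand. In ECs it had 17 UMIs in control and 53 UMIs in CKO. Its level was 2.93 CPM (1.71–4.69) in control and 7.74 CPM (5.79–10.1) in CKO, a ratio of 2.64 (1.5–4.86). *Htra2* was thus higher in CKO ECs, opposite to *Htra1* and *Htra3*, from few UMIs. Its log2 ratio was 1.40, against 0.73 in nuclei with at least 2 EC markers whatever their label and 2.46 as a mean over nuclei. The overlapping genes had narrower differences, *Loxl3* with a ratio of 1.21 (0.949–1.54) and *Aup1* with a ratio of 1.15 (0.938–1.41).

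The shares of EC nuclei with at least 1 UMI moved with the levels. *Htra3* was detected in 28.4% of control EC nuclei (exact binomial 26.6–30.2) and 2.07% of CKO EC nuclei (1.59–2.65), at median depths of 1347 and 1491 UMIs. After thinning each nucleus to 1000 UMIs, which left out 1005 control and 1055 CKO nuclei, the shares were 16.4% and 1.16%. In neurons labelled Glut_0, which should lack the gene, 0.0473% of control nuclei and 0 of 3102 CKO nuclei (the limit set by 3 counts is 0.0967%) had a UMI, at median depths of 5004 and 2314 UMIs. The detection of *Htra3* in CKO ECs was therefore low but above that in these neurons. *Htra1* was detected in 16.0% of control and 7.03% of CKO EC nuclei (9.06% and 3.43% after thinning), against 0.0947% and 0.0645% in Glut_0.

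Markers of neighbouring cell types were counted in the EC nuclei. Pericyte markers summed to 8390 CPM in control ECs and 7127 CPM in CKO ECs, with 8 of 8 higher in control and *Rgs5* the most abundant (5631 and 4831 CPM). Fibroblast markers summed to 950 CPM and 687 CPM, again 8 of 8 higher in control, led by *Col1a2*. Astrocyte markers, led by *Gja1*, summed to 427 CPM and 424 CPM with 3 of 8 higher in control. The vSMC markers summed to 99.97 CPM and 94.7 CPM, with 5 of 7 higher in control, *Acta2* the most abundant and *Cnn1* at 0. Choroid plexus markers, nearly all *Ttr*, summed to 1122 CPM and 477 CPM with 6 of 6 higher in control, and their part in the EC values was not tested.

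The EC values of the secreted members were therefore also taken from EC nuclei without any UMI of each list. Without fibroblast marker UMIs, *Htra3* was at 238 CPM in 1726 control nuclei and 8.74 CPM in 1791 CKO nuclei. It was at 195 CPM and 8.66 CPM without vSMC marker UMIs, and at 205 CPM and 11.6 CPM without astrocyte marker UMIs. EC nuclei with a vSMC marker UMI, 176 in control and 301 in CKO, had 56.3 CPM (46 UMIs) and 12.2 CPM (16 UMIs). Those with a fibroblast marker UMI had 124 CPM and 9.74 CPM, and those with an astrocyte marker UMI 151 CPM and 7.97 CPM. Only 363 control and 133 CKO EC nuclei lacked pericyte marker UMIs, and in them *Htra3* had 47 UMIs (209 CPM) and 1 UMI (13.1 CPM). *Htra3* was lower in CKO in each of these subsets, with log2 ratios of -4.77 without fibroblast, -4.50 without vSMC, -4.15 without astrocyte and -4.00 without pericyte marker UMIs. *Htra1* was at 72.7 CPM and 25.5 CPM without fibroblast marker UMIs, at 84.9 CPM and 28.6 CPM without astrocyte marker UMIs, and at 87.1 CPM and 33.0 CPM without vSMC marker UMIs. Without pericyte marker UMIs it had 12 UMIs (53.3 CPM) in control and 1 UMI (13.1 CPM) in CKO. EC nuclei without UMIs of a list were also shallower. Control medians were 933 UMIs without and 3311 UMIs with a fibroblast marker UMI. Control EC nuclei under 1000 UMIs had 286 CPM of *Htra3* and 61.7 CPM of *Htra1*. Those with at least 1000 UMIs had 163 CPM and 102 CPM. The part of depth in the values of these subsets was not tested. The splits by fibroblast, astrocyte and vSMC markers were chosen after seeing the data.

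Cycling markers went the other way from *Htra1* and *Htra3*, summing to 246 CPM in control ECs and 524 CPM in CKO ECs, with 0 of 6 higher in control and *Top2a* the most abundant. In EC nuclei without a cycling marker UMI, *Htra3* was at 192 CPM in control and 11.3 CPM in CKO, and in those with such a UMI at 124 CPM and 7.00 CPM. *Htra1* was at 103 CPM and 42.1 CPM without a cycling marker UMI, and at 80.9 CPM and 29.6 CPM with such a UMI. Both genes were lower in CKO whether or not nuclei had a cycling marker.

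Capillary markers also differed, at 11113 CPM in control ECs and 5475 CPM in CKO ECs with 7 of 7 higher in control, led by *Slc16a1*. Arterial markers summed to 836 CPM and 966 CPM, and venous markers to 1003 CPM and 935 CPM. In a split chosen after seeing the data, each EC nucleus was assigned to the vessel type whose marker list had the most UMIs. Capillary EC nuclei numbered 2283 in control and 2602 in CKO, and a single UMI decided for 67 and 187 of them, while 49 and 174 EC nuclei had no assignment. Within the capillary nuclei, capillary markers were at 11585 CPM in control and 5752 CPM in CKO, so the classes differ between libraries in the markers that define them. In these capillary nuclei, *Htra3* was at 182 CPM in control and 9.15 CPM in CKO, 19.9-fold lower (15.3–26.5), and *Htra1* was at 94.0 CPM and 31.5 CPM, 2.98-fold lower (2.53–3.53).

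Arterial EC nuclei were few, with 83 in control and 113 in CKO, of which 19 and 33 were assigned by a single UMI. *Htra3* had 7 UMIs (37.7 CPM) in control arterial nuclei and 4 UMIs (15.9 CPM) in CKO, a 2.37-fold difference with an interval of 0.603 to 11.0. *Htra1* had 38 UMIs (204 CPM) and 36 UMIs (143 CPM), 1.43-fold lower (0.882–2.32). In the control library the *Htra3* interval of arterial nuclei (15.1–77.6 CPM) lies below that of capillary nuclei (171–194 CPM), whereas the *Htra1* interval of arterial nuclei (145–281 CPM) lies above that of capillary nuclei (86.1–102 CPM). Control nuclei labelled vSMCs had 42.0 CPM of *Htra3* and 191 CPM of *Htra1*. Control EC nuclei with a vSMC marker UMI had 56.3 CPM and 162 CPM. The part of vSMC RNA in the arterial values was not tested. Venous EC nuclei, 60 in control and 55 in CKO, had 3 and 0 UMIs of *Htra3* and 6 and 2 UMIs of *Htra1*. The part of the lower capillary markers in the levels over all ECs was not tested beyond this split.

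Outside ECs, *Htra3* was measured mainly in the fibroblast marker-rich nuclei labelled glia and in vSMCs. Nuclei labelled glia had 132 CPM (115–150) in control and 182 CPM (147–224) in CKO, a ratio of 1.39 (1.07–1.77). Nuclei labelled vSMCs had 42.0 CPM from 65 UMIs in control and 38.7 CPM from 10 UMIs in CKO. The lower level of CKO ECs was thus not seen in either label. CP_8, a choroid plexus cluster, had 4 UMIs (1.76 CPM) in control and 11 UMIs (15.4 CPM) in CKO, a ratio of 8.74 (2.59–37.6), and CP_6 had 18 UMIs (5.45 CPM) and 14 UMIs (10.2 CPM). Astrocytes had 13 UMIs (9.54 CPM) in control and 0 in CKO, where the limit set by 3 counts is 5.93 CPM. Glut_20 had 5 UMIs (9.49 CPM) in control and 0 in CKO, pericytes had 1 UMI (8.21 CPM) and 0, and each other label had at most 1 UMI in either library.

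In the control library the order of *Htra3* was ECs, glia, vSMCs and astrocytes, each apart from the next by its interval, and neighbours below astrocytes overlapped. In the CKO library glia came first and apart from vSMCs, vSMCs, CP_8 and CP_6 each overlapped the next in order, and ECs, after CP_6, were apart from Glut_21. ECs thus ranked at the top in control and in place 5 in CKO. Over all nuclei, *Htra3* was at 27.3 CPM (1358 UMIs) in control brain and 6.15 CPM (191 UMIs) in CKO brain, 4.43-fold lower (3.81–5.18). ECs supplied 75.1% of the *Htra3* UMIs of the control library and 33.5% of those of the CKO library.

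**Figure D1:**
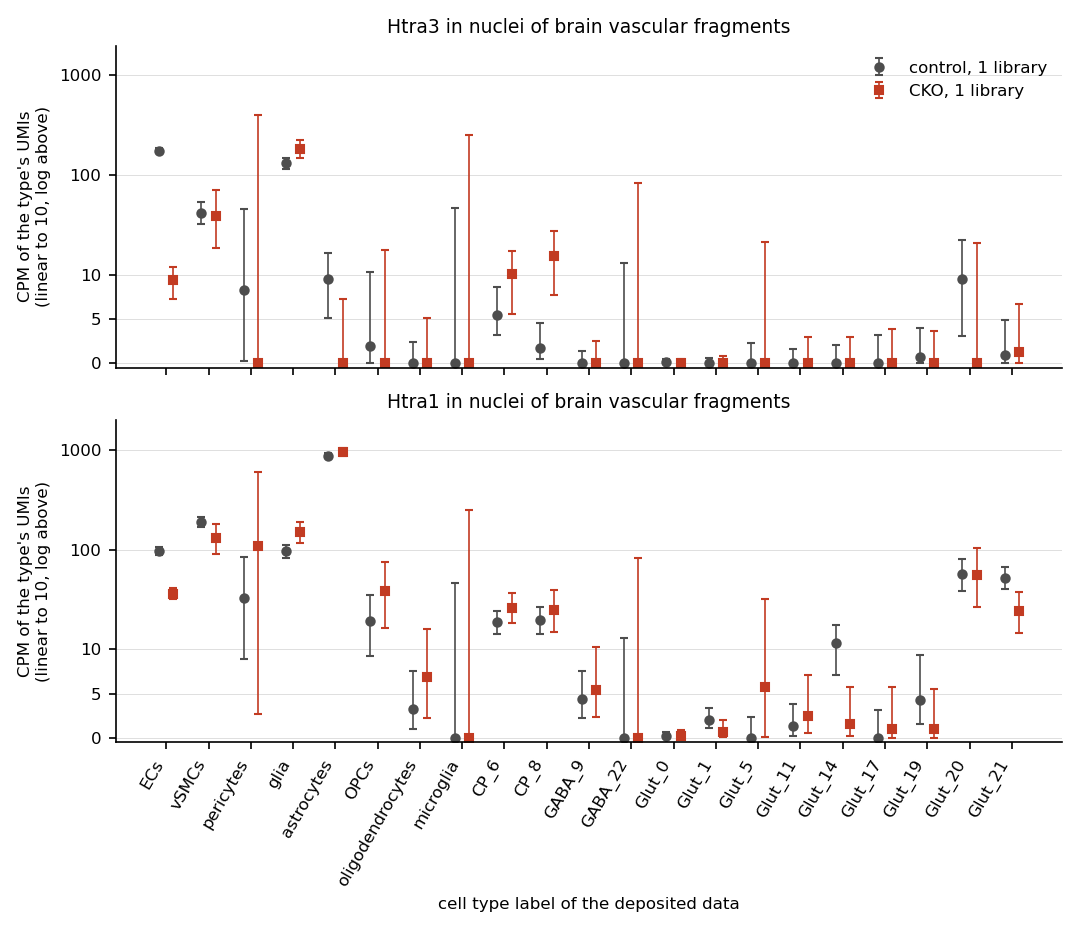
Levels of *Htra3* (top) and *Htra1* (bottom) in CPM, on an axis linear to 10 and logarithmic above, for each of the 21 cell type labels in the control (circles) and CKO (squares) brain library, with 95% Poisson intervals of counting error. *Htra3* in ECs was at 176 CPM in control and 9.34 CPM in CKO, while *Htra1* was highest in astrocytes of both libraries at 887 CPM and 961 CPM.

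*Htra1* was detected in most brain labels and was highest in astrocytes, at 887 CPM (837–938) in control and 961 CPM (878–1051) in CKO, a ratio of 1.08 (0.974–1.21). The share of astrocyte nuclei with a *Htra1* UMI was 62.4% in control and 47.0% in CKO at median depths of 1150.5 and 578.5 UMIs (54.8% and 37.3% after thinning, with 379 and 535 nuclei left out). Because this share goes against the CPM, no order is read from it.

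In nuclei labelled vSMCs, *Htra1* was at 191 CPM (170–214) in control and 132 CPM (91.1–184) in CKO, a ratio of 0.690 (0.469–0.986). Nuclei labelled glia had 96.4 CPM and 150 CPM, a ratio of 1.56 (1.17–2.06). The vascular and perivascular labels therefore did not move together. Among the clusters labelled as neurons, Glut_21 had 60 UMIs (52.5 CPM) in control and 20 UMIs (24.2 CPM) in CKO, and Glut_14 had 21 UMIs (11.5 CPM) and 2 UMIs (1.60 CPM), a ratio of 0.139 (0.0158–0.567). Glut_20, rich in oligodendrocyte markers, was at 56.9 CPM and 56.2 CPM. The choroid plexus clusters were at 18.8 CPM and 26.3 CPM (CP_6) and at 19.8 CPM and 25.2 CPM (CP_8).

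The remaining brain labels had few *Htra1* UMIs. Pericytes had 4 UMIs in control (32.8 CPM) and 1 UMI in 22 CKO nuclei (109 CPM), and OPCs had 10 UMIs (19.2 CPM) and 8 UMIs (38.3 CPM). Oligodendrocytes had 5 UMIs in each library (3.22 CPM and 6.86 CPM) and GABA_9 neurons 12 UMIs (4.35 CPM) and 8 UMIs (5.37 CPM). Glut_1 had 2.02 CPM and 0.678 CPM, and Glut_0, Glut_5, Glut_11, Glut_17 and Glut_19 had at most 4.31 CPM in control and 5.72 CPM in CKO, the latter from 1 UMI. Microglia and GABA_22 had 0 UMIs in both libraries.

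The control order of *Htra1* was astrocytes, vSMCs and ECs, each apart from the next. ECs overlapped glia, glia was apart from Glut_20, and all lower neighbours overlapped. In the CKO library astrocytes were apart from glia, and ECs came seventh, overlapping both of their neighbours. Over all nuclei *Htra1* was at 50.4 CPM (2510 UMIs) in control brain and 31.0 CPM (963 UMIs) in CKO brain, 1.62-fold lower (1.51–1.75). ECs held 22.5% and 25.9% of these UMIs, so most *Htra1* of either library lay outside ECs.

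*Htra2* had most of its brain UMIs in neuron clusters. Glut_0 neurons had 114 UMIs (9.81 CPM) in control and 72 UMIs (8.69 CPM) in CKO. Glut_1 neurons had 86 UMIs (12.4 CPM) and 31 UMIs (7.01 CPM), a ratio of 0.565 (0.362–0.860), while Glut_11 neurons had 15 UMIs (6.63 CPM) and 22 UMIs (17.8 CPM), a ratio of 2.69 (1.33–5.57). Glut_21 had 1 UMI (0.875 CPM) and 7 UMIs (8.46 CPM), a ratio of 9.67 with an interval of 1.24 to 436. Neuron clusters thus differed in direction. Among the other labels with UMIs, *Htra2* ranged from 1.81 CPM in GABA_9 to 19 CPM in Glut_20 in control, and from 3.36 CPM in GABA_9 to 19.4 CPM in vSMCs in CKO. No *Htra2* UMI was found in astrocytes, oligodendrocytes, OPCs, microglia, pericytes, GABA_22 or Glut_5 of either library. Over all nuclei it was at 6.55 CPM (326 UMIs) in control and 7.64 CPM (237 UMIs) in CKO, a ratio of 1.17 (0.983–1.38), and every pair of neighbours in the order of cell types overlapped in either library.

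*Htra4* had 22 UMIs (0.442 CPM) in the whole control brain library and 11 UMIs (0.354 CPM) in the CKO library. Its UMIs were spread over CP_6 (8 and 1), vSMCs (4 and 0), glia (3 and 3) and ECs, with at most 1 UMI in any other label. No order of cell types can be read from these counts.

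Genes of related function in ECs were taken from 5 lists with 71 genes, of which 53 had at least 200 UMIs and 12 passed 2-fold, beside 7.71% of all 7924 genes. The first list holds TGF-beta ligands, latency proteins and receptors. Of its 14 genes 11 were measured, and 4 were more than 2-fold higher in CKO and 0 lower, with a median log2 ratio of 0.91 against 0.12 over all 7924 genes. *Ltbp1*, which tethers latent TGF-beta to the matrix, was at 6.03 CPM in control and 28.0 CPM in CKO. *Nrros* and *Lrrc32*, which hold latent TGF-beta at the cell surface, were at 37.1 CPM and 111 CPM and at 16.7 CPM and 44.8 CPM. *Tgfbr3*, the coreceptor betaglycan, was at 120 CPM and 351 CPM. All 4 are binding partners of the ligands, and the most abundant gene of the list, the coreceptor *Eng*, was at 775 CPM and 515 CPM.

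The second list holds SMADs and target genes of TGF-beta signaling. Of 16 genes 14 were measured, with 0 higher and 3 lower past 2-fold and a median log2 ratio of -0.43. The 3 were the feedback inhibitors *Skil* (168 CPM and 30.9 CPM), *Pmepa1* (283 CPM and 70.5 CPM) and *Smad7* (200 CPM and 80.0 CPM). *Id1*, a transcriptional regulator induced by BMPs and the most abundant of the list, was at 820 CPM and 469 CPM.

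The list of matrix and secreted proteins cut by HTRA enzymes had 6 of 12 genes measured, 0 higher and 3 lower past 2-fold, with a median log2 ratio of -0.88. *Eln*, encoding elastin, was at 168 CPM in control and 15.6 CPM in CKO. *Fn1*, encoding fibronectin and the most abundant of the list, was at 1850 CPM and 503 CPM. *Dcn*, encoding the proteoglycan decorin and also among the fibroblast markers, was at 49.5 CPM and 23.9 CPM. These 3 of the 6 measured substrate genes were thus lower in the same EC libraries as *Htra3* and *Htra1*. *Vtn*, also measured in this list, at 624 CPM and 480 CPM, is among the pericyte markers. The part of the lower fibroblast and pericyte markers in the *Dcn* and *Vtn* values was not tested.

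The next list holds other secreted or surface proteases and serpins. Of its 14 genes 9 were measured, with 1 higher past 2-fold (*Adamts9*, a metalloprotease, at 171 CPM and 387 CPM), 0 lower and a median log2 ratio of 0.11. The most abundant, the collagen chaperone *Serpinh1*, was at 864 CPM and 881 CPM. Of 15 genes for mitochondrial proteases and IAP proteins, the pathways in which HTRA2 acts, 13 were measured. Only *Afg3l2*, a protease of the inner membrane, passed 2-fold (14 CPM and 29.5 CPM), and with edgeR's TMM factors it did not. The median was 0.17, and the most abundant, the IAP protein gene *Birc6*, was at 242 CPM and 317 CPM. With TMM factors 588 of the 7924 genes passed 2-fold, 295 higher and 293 lower in CKO, in place of 422 and 189.

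**Figure D2:**
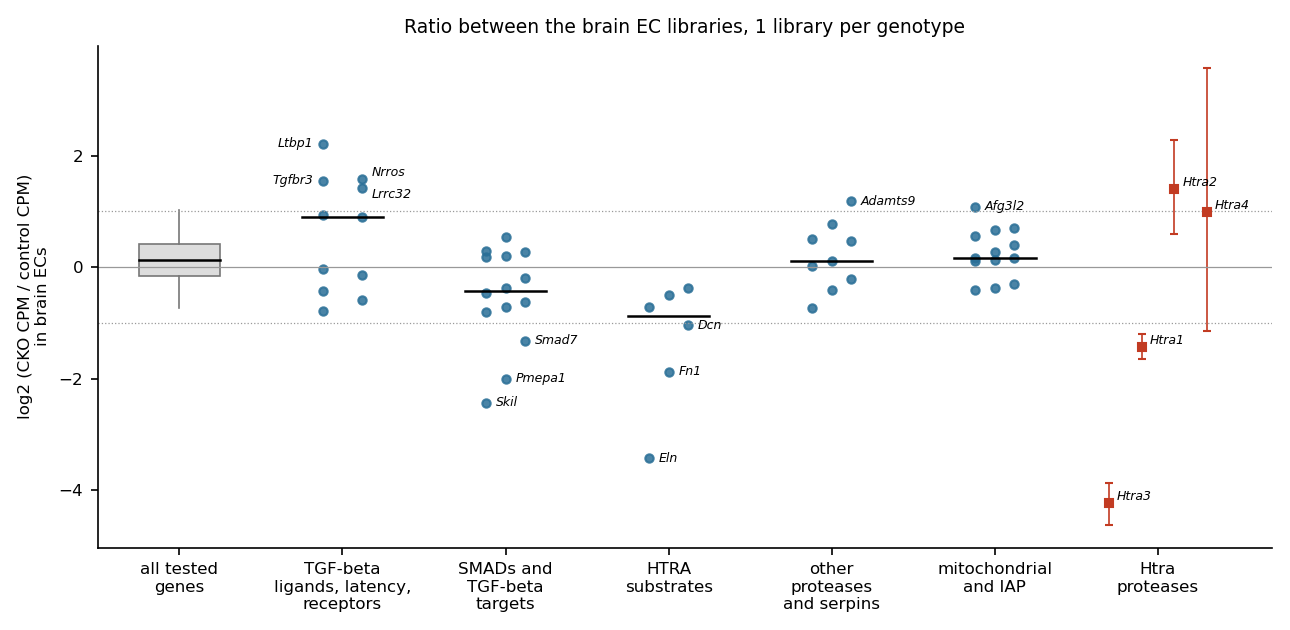
Log2 ratio of CKO to control CPM in brain ECs, for all 7924 genes with at least 200 UMIs (box of quartiles, whiskers from the 5th to the 95th percentile), for the measured genes of each of 5 lists (circles, with bars at list medians) and for the Htra genes (squares with 95% intervals of counting error); dotted lines mark 2-fold. *Htra3* (-4.23) and *Htra1* (-1.42) lie below the lower line, and *Eln* (-3.43) is the lowest list gene.

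The sequence before the start of *Htra3*, whose level differed most, is shown for reference. The RefSeq promoter table (build GRCm38.p6) held 2 of the 4 members, *Htra1* and *Htra3*, and each sequence matched GRCm39 at a single place. The *Htra1* window lies within an annotated exon and is not shown. The *Htra3* window, without 2 bases that overlap its first annotated exon, covers 248 bases at chr5:35837127-35837374 on the minus strand of GRCm39 and is written 5′ to 3′.
*Htra3*: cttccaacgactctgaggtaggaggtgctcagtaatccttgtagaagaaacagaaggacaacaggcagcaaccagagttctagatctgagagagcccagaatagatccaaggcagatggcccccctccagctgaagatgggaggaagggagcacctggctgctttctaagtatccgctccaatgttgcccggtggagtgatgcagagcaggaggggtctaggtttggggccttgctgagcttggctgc
The SMAD-binding letters CAGAC and the letters GGCGC were searched on both strands, and matches would be in capitals. Neither was found in this window, and of 32851 RefSeq promoters, 41.9% hold CAGAC and 31.8% hold GGCGC in the same 248 bases.

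To find genes with a pattern like that of each member, levels as log2(CPM + 1) were correlated across 18 brain cell types in both libraries. These 36 points share libraries and differ in depth, and 14448 genes were compared. The genes most like *Htra1* included *Pnpla7* (Pearson r 0.919), *Glul* (0.916), *Mertk* (0.906) and *Trib2* (0.904), of which *Glul*, encoding glutamine synthetase, is a gene of astrocytes. *Htra3* was most like *Steap3* (0.93), *Isyna1* (0.929), *Thbs2* (0.923), *Sult1a1* (0.921) and *Stat6* (0.921). In ECs *Steap3* was at 74.6 CPM in control and 39.4 CPM in CKO and *Isyna1* at 160 CPM and 68.6 CPM, while *Stat6* was at 48.3 CPM and 49.6 CPM. *Htra2* was most like *Flot1* (0.922), *Camk1* (0.919), *Pfkl* (0.896), *Ipo5* (0.887) and *Cx3cl1* (0.884). Between members, *Htra1* and *Htra3* had r 0.645, *Htra1* and *Htra2* had r -0.21, and *Htra3* and *Htra4*, the latter from few UMIs, had r 0.707.

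In retina, *Htra1* was highest in Müller glia and rods. Müller glia (MG), the radial glia of the retina, had 114 CPM (172 UMIs) in the control library. The 10 CKO libraries with at least 20 MG nuclei ranged from 69.7 CPM over a median of 140 CPM to 186 CPM (mean 134 ± 34.9 SD, n = 10), and 7 of 10 were above control. The control value lay within the CKO range. Within batch 1, the 3 CKO libraries lay between 69.7 CPM and 122 CPM with a mean of 101 CPM, below control, so the direction of the mean differs within the batch (log2 ratio to control -0.17, against 0.24 over all 10). Without CKO replicates 4 and 5 the range was 69.7 CPM to 186 CPM with a median of 146 CPM, and 7 of 9 were above control.

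Rods had 60.2 CPM of *Htra1* in control and 47.5, 89.6 and 119 CPM as lowest, median and highest of 10 CKO libraries, with 9 above control (8 of 9 without replicates 4 and 5). In batch 1 the 3 CKO libraries lay between 76.1 CPM and 119 CPM. Rods of most CKO libraries were thus above the control library, which remained within the CKO range.

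With all CKO libraries taken, horizontal cells (HC) were the only label with *Htra1* in control below every CKO library. The control library had 14.7 CPM from 11 UMIs in 70 nuclei. The CKO libraries had 18.1, 43.0 and 67.6 CPM as lowest, median and highest, 10 of 10 above control, beside 692 of 5698 genes (12.1%) with at least 200 UMIs that were likewise lowest in the control HC library. In batch 1 the 3 CKO libraries had 31.4 to 56.0 CPM, and without replicates 4 and 5 the lowest of 9 was 31.4 CPM and the median 44.5 CPM. In this set of 9, chosen after seeing the data for comparison with all genes, 1159 of 5334 genes (21.7%) with at least 200 UMIs were lowest in the control HC library. Markers in the HC label differed between genotypes as well. Horizontal cell markers were at 3141 CPM in control and a mean of 2058 CPM in CKO, cone markers at 85.4 CPM and 357 CPM (up to 887 CPM), rod markers at 1523 CPM and 1834 CPM and Müller glia markers at 693 CPM and 788 CPM. Their part in the *Htra1* values was not tested.

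The other retinal neurons had lower *Htra1*. GABAergic amacrine cells had 8.47 CPM in control and 8.27, 18.7 and 31.5 CPM as lowest, median and highest in CKO, with 9 of 10 above control. Without replicates 4 and 5 all 9 were above control (lowest 9.75 CPM), beside 1138 of 11032 genes (10.3%) likewise lowest in control in these cells. Glycinergic amacrine cells had 32.0 CPM in control and 25, 38.4 and 57.4 CPM in CKO. With all libraries, both amacrine types overlapped between genotypes. Retinal ganglion cells (RGC) had 10.3 CPM in control and 0, 20.4 and 35.5 CPM in 11 CKO libraries, the 0 being replicate 4 (lowest 9.16 CPM without replicates 4 and 5). Cones had 28.6 CPM and 18.5, 31.8 and 65.0 CPM. Cone bipolar cells (CBC) had 19.5 CPM and 18.6, 26.2 and 40.7 CPM, and rod bipolar cells (RBC) had 11.9 CPM and 6.80, 21.6 and 40.2 CPM. In each of these types the control value lay within the CKO range.

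The immune label had 26.2 CPM of *Htra1* from 3 UMIs in control. The 10 CKO libraries had 0, 47.4 and 65.4 CPM as lowest, median and highest (35.5, 52.3 and 65.4 CPM without replicates 4 and 5). The 0 was again replicate 4, where the limit set by 3 counts is 69.7 CPM, so no low level is read from it. Replicate 4 is also the library whose immune label had no neuron or rod marker UMIs. In the smaller set of 8 libraries all were above control, but *Htra1* had 86 UMIs there with control, below the 200 UMIs asked of genes for a share over all genes, so no such share is given. Astrocytes reached 20 nuclei in 4 CKO libraries, with 9.32 to 44.7 CPM. Over all nuclei, *Htra1* was at 33.9 CPM in control and 0, 49.5 and 62.9 CPM in 11 CKO libraries (33.8, 52.8 and 62.9 CPM without replicates 4 and 5). Müller glia were the highest type in 7 of 10 CKO libraries and rods in 3. Replicate 4 had only 2 types with enough nuclei, immune cells and RGC, both at 0 CPM.

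**Figure D3:**
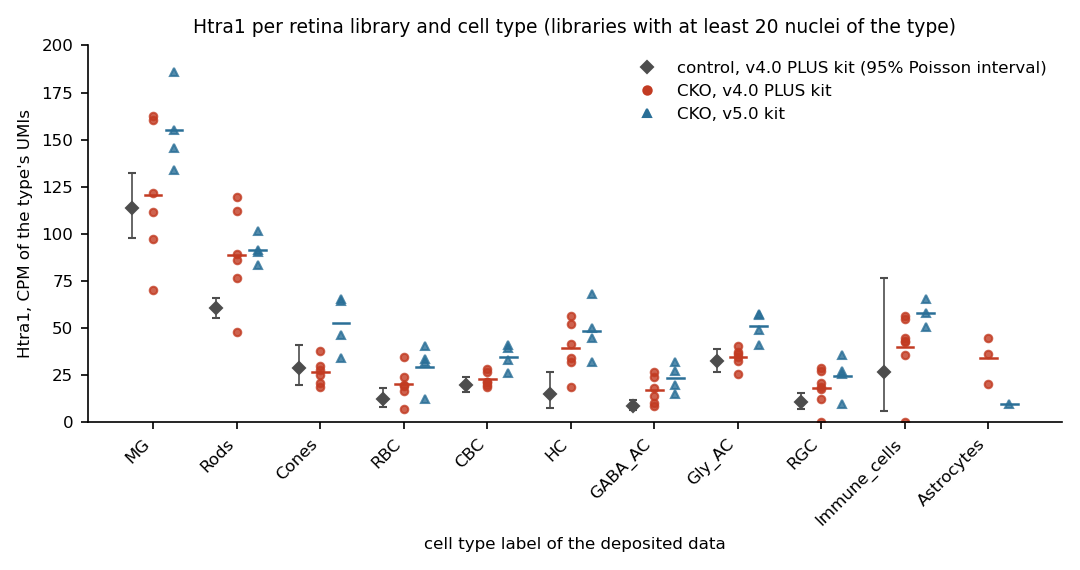
*Htra1* level in CPM of each retinal cell type label per library with at least 20 nuclei of that type, with the control library as diamonds (95% Poisson interval), CKO libraries of the v4.0 PLUS kit as circles and of the v5.0 kit as triangles, and short lines at the means of each kit. Müller glia (MG) of the CKO libraries lie between 69.7 CPM and 186 CPM around the control value of 114 CPM, and horizontal cells (HC) of all 10 CKO libraries lie above the control value of 14.7 CPM.

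The v4.0 PLUS and v5.0 kits were compared among CKO libraries, a contrast that did not choose the genes. *Xist* was at 0.365 to 0.676 CPM in the v5.0 libraries and at 0.627 to 6823 CPM in the v4.0 PLUS libraries. The part of sex in the kit comparison was not tested. *Htra1* in Müller glia was at 120 ± 36.2 CPM (n = 6) with v4.0 PLUS and 155 ± 22.3 CPM (n = 4) with v5.0, a log2 ratio of -0.36 with a two-sided exact permutation p = 0.133 (adjusted p = 0.267 over both tests, smallest possible p 0.00476). Within batch 3, which holds both kits, the log2 ratio was 0.06 (161 CPM and 155 CPM, exact permutation p = 0.733, smallest possible p 0.0667). In Müller glia the difference between kits did not exceed the spread between libraries and did not hold its direction within the batch. Values of *Htra1* in other groups were not tested between kits. Over all nuclei they lay at 0 to 52.8 CPM with v4.0 PLUS and 56.1 to 62.9 CPM with v5.0, beside 3057 of 16922 genes (18.1%) whose v5.0 libraries likewise all lay above the v4.0 PLUS libraries. Here the v4.0 PLUS libraries of batch 3 had 47.1 CPM and 33.8 CPM. In glycinergic amacrine cells they lay at 25 to 39.9 CPM with v4.0 PLUS and 40.5 to 57.4 CPM with v5.0, beside 1570 of 10563 genes (14.9%). The control library is a v4.0 PLUS library. *Htra2* over all nuclei was at 12.1 CPM and 11.1 CPM (log2 ratio 0.12, permutation p = 0.773, adjusted p = 0.773), and within batch 3 at 7.71 CPM and 11.1 CPM (log2 ratio -0.53, exact permutation p = 0.133).

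*Htra3* was sparse in retina, with 25 UMIs in the control library and 217 in all CKO libraries. Müller glia had 8.6 CPM (13 UMIs) in control and 4.29, 8.35 and 18.5 CPM as lowest, median and highest of 10 CKO libraries (4.29, 7.97 and 18.5 CPM without replicates 4 and 5). MG nuclei also carried EC markers, led by *Flt1*, at 934 CPM in control and a mean of 939 CPM in CKO, while CKO means of the other retinal labels were at most 106 CPM. The immune label was highest in control, at 8.74 CPM from 1 UMI, and in CKO replicates 1, 3 and 7 (7.61, 8.01 and 15.6 CPM). In replicates 1 and 3 MG were close to it, at 7.60 and 7.97 CPM. Astrocytes were highest in replicate 6 (18.1 CPM), and MG in 6 CKO libraries. Over all CKO libraries the immune label had 16 *Htra3* UMIs and astrocytes 3, so these ranks rest on few UMIs. Cones had 0 UMIs in every library. Over all nuclei *Htra3* was at 0.807 CPM in control and 0, 0.884 and 1.59 CPM in CKO, so the control library lay within the CKO range.

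*Htra2* was spread over the retinal cell types. Over all nuclei it was at 9.87 CPM in control and 7.49, 10.2 and 22.1 CPM as lowest, median and highest in CKO, the highest being replicate 4 (15.3 CPM without replicates 4 and 5). Müller glia had 2.65 CPM from 4 UMIs in control and 2.37, 7.44 and 12 CPM in CKO, and HC had 10.7 CPM and 2.42, 6.08 and 20.2 CPM. RGC had 12 CPM in control and 0, 15.5 and 23.1 CPM in CKO. In all 3 types the groups overlapped. The immune label was highest for *Htra2* in control and in 6 CKO libraries. Replicate 4 was among the 6, with immune cells and RGC as its only types with enough nuclei. In the others and in control, this label had more neuron and rod than immune markers. The immune label had 26.2 CPM of *Htra2* from 3 UMIs in control and 7.19, 21.3 and 46.5 CPM in CKO. The highest was replicate 4, where the limit set by 3 counts is 69.7 CPM. Without replicates 4 and 5, 0 of 8 CKO libraries were above control (highest 24.5 CPM), from 29 UMIs with control, too few for a share over all genes.

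*Htra4* was close to the limit of detection in retina too, at 0.323 CPM (10 UMIs) over all nuclei in control and 0, 0.287 and 0.498 CPM in CKO. Rods had 0.465 CPM (4 UMIs) and 0, 0.723 and 1.41 CPM. Glycinergic amacrine cells had 5 UMIs (1.41 CPM) in control and 4 UMIs in all 10 CKO libraries, at 0 to 0.549 CPM. The control value lay above this range, from too few UMIs for a share over all genes, and no difference is read from it.

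The order of retinal cell types was taken from the control library and each pair of neighbours was tested in the CKO libraries, within library, by a two-sided exact sign-flip permutation test. This gave 30 pairs for *Htra1*, *Htra2* and *Htra3*, which had at least 200 UMIs over all retinal nuclei, and 5 passed an adjusted p of 0.05 (Benjamini-Hochberg over the 30), 4 of them in the direction of the control order. For *Htra3*, Müller glia were above HC by 9.40 CPM in 10 of 10 libraries (exact permutation p = 0.00195, the smallest possible; adjusted p = 0.0391). EC markers were likewise higher in MG than in HC (CKO means 939 CPM and 58.8 CPM), and their part in this difference was not tested. HC had 4 *Htra3* UMIs over all 10 CKO libraries. In replicates 2 and 6 the HC limits set by 3 counts (4.67 and 6.37 CPM) lie above the MG values (4.29 and 6.15 CPM). The order of MG and HC is not resolved in these replicates. For *Htra1*, HC were above RBC by 19 CPM in 9 of 10 libraries (adjusted exact permutation p = 0.0391). Müller glia markers, of the type highest for *Htra1*, were also higher in HC (CKO mean 788 CPM, led by *Vim*) than in RBC (132 CPM), and their part in this difference was not tested. For the same gene, immune cells were above CBC by 22.5 CPM in 9 of 9 (adjusted exact permutation p = 0.0391). In these 9 libraries the immune label had more neuron and rod than immune markers.

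HC were also above CBC for *Htra1*, opposite to the control order, with CBC minus HC at -15.4 CPM and CBC lower in 8 of 10 libraries (adjusted exact permutation p = 0.0469). Here too Müller glia markers were higher in HC than in CBC (CKO means 788 CPM and 156 CPM), and their part was not tested. For *Htra2*, RGC were above HC by 7.85 CPM in 9 of 10 libraries (adjusted exact permutation p = 0.0469). The top pair for *Htra1*, Müller glia against rods, differed by 44.7 CPM in 7 of 10 libraries and did not pass (exact permutation p = 0.0156, adjusted p = 0.0670). Without CKO replicates 4 and 5, 0 of the 30 pairs passed, and the adjusted exact permutation p of the 5 pairs lay between 0.0586 and 0.0670. With 8 or 9 libraries the differences were 8.87 CPM for *Htra3* in Müller glia against HC, 21 CPM, 22.3 CPM and -17.4 CPM for *Htra1* in HC against RBC, immune cells against CBC and CBC against HC, and 7.43 CPM for *Htra2* in RGC against HC. The 25 other pairs, among them all lower neighbours of *Htra3* and the amacrine cells and RGC of *Htra1*, did not pass. The 5 of these that include astrocytes had 4 libraries, where the smallest possible exact permutation p is 0.125, and could not pass. Among them, rods were above astrocytes for *Htra1* by 66.9 CPM in 4 of 4 libraries. The place of astrocytes in the control order rests on 12 control nuclei, with 1 UMI of *Htra1* and 0 of *Htra2* and *Htra3*.

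The test was therefore repeated, after seeing the data, with the order of the types that have at least 20 control nuclei, which leaves out astrocytes. Of 27 pairs 9 passed, 7 of them in the direction of the control order. They include the 5 above and 4 more. For *Htra1*, Müller glia were above rods (adjusted exact permutation p = 0.0469) and rods were above glycinergic amacrine cells by 48.8 CPM in 10 of 10 libraries (adjusted exact permutation p = 0.0264). For *Htra2*, glycinergic amacrine cells were above rods by 2.86 CPM, opposite to the control order (adjusted exact permutation p = 0.0452). The last of the 9 is *Htra3* in rods against cones, from 15 UMIs and 0 UMIs in the CKO libraries. The limits set by 3 counts in cones, 1.32 to 6.92 CPM, lie above the difference of 0.338 CPM, so nothing is read from this pair. With this order and without CKO replicates 4 and 5, 5 of 27 pairs passed, which were rods against glycinergic amacrine cells and the first 5 pairs apart from *Htra2* in RGC against HC. Which pairs pass thus depends on the order and the libraries taken.

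Across 10 retinal cell types, with the control library and the CKO mean as 20 points and 17303 genes compared, *Htra1* was most like *Wwtr1* (r 0.924), *Adgrv1* (0.902), *Plxnb1* (0.898), *Bcl2l11* (0.891) and *Epas1* (0.891). *Htra2* was most like *Asah1* (0.871), *Mmel1* (0.860), *Ssh2* (0.856), *Tpte* (0.843) and *Aim2* (0.843). *Htra3*, from few UMIs, was most like *C430049B03Rik* (0.958), *2310001H17Rik* (0.957), *Clec2d* (0.953), *Trim12c* (0.945) and *Pon2* (0.944). These points share libraries and differ in depth, and the values describe likeness only.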

How the data were processed

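The authors aligned reads to GRCm39 with PIPseeker, removed background with CellBender and doublets with SOLO and by hand, and deposited UMI counts per gene and nucleus with cell type labels (Seurat); the labels list mm10. No further filter on nuclei or doublets was applied. UMI counts were summed per label and library and divided by that sum's total (CPM) in Python 3.11.15 with numpy 2.4.6, pandas 2.3.3 and scipy 1.17.1. TMM factors came from edgeR 4.0.16 (R 4.3.3). Types needed 20 nuclei in a CKO retinal library (the control order also used 12 control astrocyte nuclei), EC genes 200 UMIs, and likeness 100000 UMIs per type. Named genes were the members, *Tgfbr1*, list genes past 2-fold, each list's most abundant gene, the 5 most alike genes, markers and sex-linked genes. A gene among those most like *Htra1* in brain is not reported here. Count ratios, intervals and permutation tests were tested on simulated data. The members and lists were chosen with earlier results of these data known. Alternatives changed scaling, nuclei, libraries and minimum counts.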

Additional observations from a re-analysis of the deposited data

Results flagged for a closer look

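Among 29 groups of 4 to 10 CKO retina libraries examined, each 1 member in 1 cell type, 5 held a library far from the others relative to the range of the group. Chance is nominally taken to give about 1 such group in 20, a rate that was not tested here and need not hold for groups with few UMIs. *Htra1* in immune nuclei was 0 CPM in CKO replicate 4, and *Htra2* in the same nuclei was 46.5 CPM. That library held 104 nuclei in all, and the limit set by 3 counts in its immune label is 69.7 CPM, above both values. Neither value is therefore read as apart from the other libraries. *Htra2* in rod bipolar cells was 17.1 CPM in CKO replicate 2. *Htra3* in GABAergic amacrine cells was 1.80 CPM in CKO replicate 11, and in rod bipolar cells it was 1.25 CPM in CKO replicate 3. In rod bipolar cells *Htra3* had 3 UMIs over all 10 CKO libraries.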

How the results depend on the processing

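In brain ECs each member kept its direction under every alternative tried on all EC values. Within EC subsets that were not among these alternatives *Htra4* turned, at 0.722 CPM and 0.636 CPM with a cycling marker UMI and at 10.8 CPM and 3.97 CPM in arterial ECs, from at most 2 UMIs each. Over the alternatives tried on all EC values, log2 ratios of CKO to control ranged from -4.77 to -3.22 for *Htra3*. They ranged from -2.03 to -1.23 for *Htra1*, from 0.73 to 2.46 for *Htra2* and from 0.05 (2 and 2 UMIs) to 1.57 for *Htra4*. EC nuclei with a vSMC marker UMI, where the *Htra3* difference was smaller, were not among these alternatives. *Htra3* was at -3.22 in nuclei with at least 2 EC markers whatever their label, and at -4.77 without fibroblast marker UMIs, a setting chosen after seeing the data. *Htra1* was at -2.03 without pericyte marker UMIs, from 12 and 1 UMIs, and *Htra2* at 2.46 as a mean over nuclei. *Htra2* and *Htra4* gave no value without pericyte marker UMIs, nor *Htra4* without fibroblast marker UMIs, for lack of UMIs. TMM factors lowered every log2 ratio by 0.14, where the median over all genes was 0.12. With at least 50 UMIs 1516 of 11351 genes passed 2-fold (1073 higher, 443 lower), against 611 of 7924 genes with at least 200 UMIs. Without pericyte marker UMIs 93 passed (10 higher, 83 lower) of 290 tested, among them 3 list genes of 5 tested.

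In retina, the log2 ratio of *Htra1* in Müller glia was -0.17 within batch 1, against 0.24 over all CKO libraries. Between kits it was 0.057 within batch 3, a setting chosen after seeing the data, and *Htra2* over all nuclei was at -0.052 without CKO replicates 4 and 5 and at -0.53 within batch 3. Of the pairs of neighbouring cell types, 0 passed without CKO replicates 4 and 5 and 0 passed with at least 50 nuclei, which left at most 3 libraries for the pairs that had passed. With 50 nuclei, *Htra1* in astrocytes against glycinergic amacrine cells turned to 4.76 CPM from 1 library, and *Htra3* in HC against CBC turned to -0.230 CPM. Apart from fewer genes, nuclei or libraries, the cause was not tested. With the control order of types that have at least 20 control nuclei, chosen after seeing the data, 9 of 27 passed in place of 5 of 30, and 5 of 27 when CKO replicates 4 and 5 were also taken out. Of 170 combinations of pair and setting, 155 kept their direction and side of the threshold, including pairs with too few libraries to pass in any setting. No paired analysis was possible because the control and CKO labels share no numbers that pair their libraries.

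A single library per genotype in brain and a single control library in retina leave genotype, library and mouse inseparable. *Htra4* throughout, *Htra2* in ECs and *Htra3* in retina rest on few UMIs. Background removal and the curation of nuclei were done before deposit, and their effect on these levels was not tested.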
